A study of Mus musculus with 2 samples.

Results

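The measurements concern 2957 probes of a mouse expression array that are annotated to an Ensembl transcript. They were chosen by the accession in the spot files, which begins with ENSMUST, and make up 5.31% of the 55681 probes that are not controls. The probes lie on 2796 transcripts, of which 2647 have a single probe here and 149 have several. Each of 2 heart RNA samples was read on an array of its own, in the single dye Cy3. The control sample has a C57BL6 background and no other genotype in its labels. The other sample comes from the line B6.Cg-Tg (CAG-WRN*K577M), whose label ends in 5025Wcl/Mmmh and which is called WRN-K577M below, a transgenic line of the same C57BL6 background in which the ubiquitously active CAG promoter drives WRN with 1 amino acid of the helicase domain exchanged. Both sample titles also carry ND, an abbreviation that the labels do not explain, so a diet, treatment or state shared by the samples is not known. Age, sex and the number of hearts per sample are not stated in the sources used here, and the purpose of the series is to find signals behind cardiac remodelling in the transgenic line. Each group holds 1 array, so no test between genotypes can be made, p-values are not given, and effects of the genotype cannot be told apart from other differences between the samples.

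The WRN protein unwinds DNA during repair and replication, and people without it age early, as Werner syndrome. Ensembl builds gene models from aligned cDNA and protein evidence and from manual curation. Besides the major messenger RNAs, its transcript set holds further splice forms, non-coding RNAs, immune receptor segments and pseudogenes, some of which closely resemble the gene they were copied from. RefSeq accessions that begin with NM_ stand for curated messenger RNAs, and 26731 probes on the array carry one. A probe has 1 accession in the files, so an ENSMUST accession does not show that RefSeq lacks the transcript, and the members are called ENSMUST probes here. The files do not pair the identifiers with gene names, and of the 2796 identifiers 0 could be matched to a symbol in the tables used, so neither genes nor sequences are given for them.

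The samples were checked with the RefSeq probes of marker genes. All 8 ventricular markers, among them the myosin chains Myh6 and Myl2 and the troponins Tnnt2 and Tnni3, were well above background on both arrays with log2 ratios (WRN-K577M minus control) from -0.15 to 0.25. Most markers of other tissue and cell types were lower in the WRN-K577M sample. The 7 measured atrial markers of 8 had log2 ratios from -9.40 to -1.06, and 7 of 8 lung epithelial markers were well above background in the control against 2 in the WRN-K577M sample. Summed over a list and divided by the array's 75th percentile, the signal was 750 and 180 for the atrial list, 149 and 0.577 for the lung list, 943 and 221 for the erythroid list, and 184 and 225 for the adipocyte list, where Fabp4 had a log2 ratio of 0.53, in the control and the WRN-K577M sample. All 8 macrophage markers lay below 0 (-1.40 to -0.36), as did 7 of 8 fibroblast, 5 of 6 measured adipocyte, 5 of 5 erythroid, 3 of 4 neutrophil, 3 of 4 T cell, 1 of 2 B cell and 5 of 8 endothelial markers. In bulk RNA, fewer cells of a type and less RNA per cell cannot be told apart. Which ENSMUST probes read transcripts of these cells is not known, and the part of those cells in the results that follow was not tested.

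ENSMUST probes were detected less often than NM_ probes and more often than most other kinds. Of the 2957 probes, 1600 (54.1%) were well above background in the control, and 1543 (52.2%) were so in the WRN-K577M sample. Both arrays detected 1508 (51.0%), and these are called measured below. They represent 1422 transcripts. The remaining probes comprised 92 detected on the control array only, 35 on the other array only and 1322 on neither. Among NM_ probes 66.8% were measured, among probes named by a genome position 32.8%, among full-length cDNA clones with an AK accession 42.2% and among non-coding RefSeq transcripts 35.7%. Probes with a BC clone accession (62.3%) or one that begins with NAP (66.1%) were also measured more often than ENSMUST probes. The share over all non-control probes was 51.5%.

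**Figure D1:**
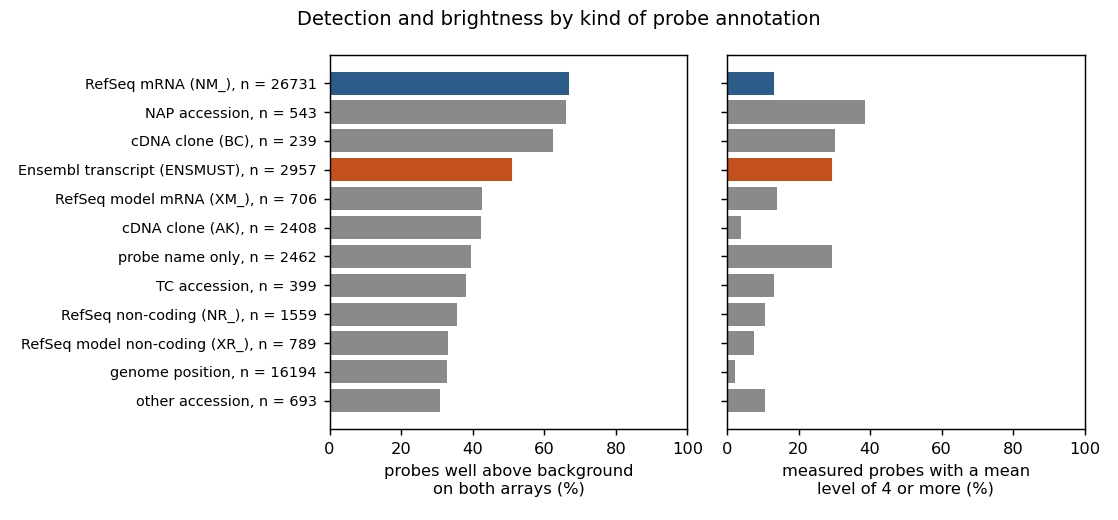
Left, share of probes well above background on both arrays for each kind of annotation, with the number of probes beside each name; right, share of the measured probes whose level averaged over both arrays was 4 or more. Orange marks ENSMUST probes, of which 51.0% were measured and 29.2% of the measured ones were this bright, and blue marks NM_ probes, with 66.8% and 13.1%.

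The measured ENSMUST probes spanned most of the range of signal and were over-represented among bright probes. A level is the log2 processed signal minus the 75th percentile of the array. In the control the levels ran from -4.43 to 9.58, with a lower quartile of -2.07, a median of 0.48 and an upper quartile of 4.66. In the WRN-K577M sample they ran from -4.20 to 9.93, with quartiles of -1.90 and 4.81 and a median of 0.62. The distributions therefore covered nearly the same range on both arrays. NM_ probes had nearly the same median in the control, 0.61, but an upper quartile of 2.65. A mean level of 4 or more was reached by 441 of the measured ENSMUST probes (29.2%), against 12.4% of all measured probes, 13.1% of NM_, 2.24% of position-named and 3.84% of AK probes. The high share was not theirs alone: it was 29.4% for probes whose only accession was their own probe name, 30.2% for BC clones and 38.4% for NAP accessions. Of the 1000 brightest probes on the arrays 192 were ENSMUST probes (19.2%), while they made up 5.26% of all measured probes. Among the 100 brightest there were 12. At the dim end 375 ENSMUST probes (24.9%) had a mean level below -2, against 18.1% of NM_ probes and 26.6% of all measured probes.

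Levels of ENSMUST probes were close to equal in both samples, with more small ratios above 0 than below. Of the 1508 measured probes, 1018 (67.5%) had a log2 ratio above 0 and 1328 (88.1%) lay within 1.5-fold. The median log2 ratio was 0.16, the quartiles -0.064 and 0.33, and the SD over probes 0.41. Over all 28666 measured probes of the arrays the median was 0.066 and 57.9% were above 0. The median of the ENSMUST probes was 0.074 with cyclic loess and 0.092 with levels taken relative to the median of all probes, so its distance from 0 depends in part on how the arrays are scaled, and it stayed above 0 in each scaling tried. The share of ENSMUST probes above 0 was 59.4% with cyclic loess and 59.0% relative to the median of all probes. Across the measured probes the levels of the arrays correlated with a Pearson r of 0.994 (0.983 over 17866 NM_ probes). Levels of ENSMUST probes were the more widely spread, with control quartiles of -2.07 and 4.66 against -1.35 and 2.65 for NM_ probes. A wider range of levels raises r, so the higher r does not show closer agreement. Probes are not independent replicates, and the r describes this pair of arrays.

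A total of 35 ENSMUST probes (2.32%) were at least 2-fold higher in the WRN-K577M sample, where 2.21% of all measured probes were, and 15 (0.995%) at least 2-fold lower, where 2.5% were. The share of higher probes was thus close to that of the arrays, and the share of lower ones was smaller. Higher probes made up 70.0% of the ENSMUST probes past 2-fold. The same share was 46.9% over all measured probes, 36.7% over NM_ probes and 66.7% over probes that are neither ENSMUST nor NM_. With levels relative to the median of all probes, 25 ENSMUST probes were higher and 17 lower (59.5% higher). These were 1.66% and 1.13% of the measured ENSMUST probes, against 1.76% and 2.92% of all measured probes. After normexp background correction 7 were higher and 7 lower (0.464% each, against 0.565% and 1.07%). Without these changes 50 ENSMUST probes (3.32%) were past 2-fold in either direction, against 4.72% of all measured probes. At 1.5-fold 133 (8.82%) were higher and 47 (3.12%) lower, against 8.43% and 6.91% of all measured probes. The 35 higher probes read 34 transcripts and had a median log2 ratio of 1.24. Of these, 12 were dim (mean level below -2), 19 lay between -2 and 4, and 4 were bright (4 or more). The 15 lower probes read 14 transcripts and had a median log2 ratio of -1.49, with 4 dim, 9 in the middle range and 2 bright. Among dim measured ENSMUST probes, 3.2% were at least 2-fold higher and 1.07% lower, against 3.56% and 2.89% of all dim measured probes. In the middle range the shares were 2.75% and 1.301%, against 1.79% and 2.48% of all measured probes there.

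The largest ratio upward was that of ENSMUST00000139139, at a level of -2.46 in the control against -0.048 in the WRN-K577M sample, a log2 ratio of 2.42 (5.34-fold). Its processed signal was 40.6 against 177. It was followed by ENSMUST00000093911, with levels of -3.73 and -1.81 and a log2 ratio of 1.92 (3.78-fold). Both probes were dim in the control, and after normexp with its added offset of 50, their log2 ratios were 1.46 and 0.55. In the other direction ENSMUST00000059110 was at -0.43 in the control against -3.22 in the WRN-K577M sample, a log2 ratio of -2.79 (6.92-fold lower) that was -1.13 after normexp. ENSMUST00000128900 had levels of 2.24 and -0.091 and a log2 ratio of -2.33 (5.02-fold lower). That probe had a signal of 1056 in the control against 172 in the WRN-K577M sample, and its log2 ratio after normexp was -2.10. The next 10 probes upward had log2 ratios from 1.43 to 1.84 and the next 10 downward from -1.997 to -1.25.

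Ratios of 2-fold or more were somewhat less frequent among bright probes than over all measured probes, where 2.21% were higher and 2.5% lower. Of the bright ENSMUST probes 0.907% were higher and 0.454% lower by that much, against 1.40% and 1.82% of all bright probes. The 4 that were higher had levels in the control and the WRN-K577M sample of 4.61 and 6.45 for the first, 5.07 and 6.90 for the second, 4.61 and 5.84 for the third and 6.19 and 7.25 for the fourth. The 2 that were lower had levels of 7.49 and 5.73, and of 4.71 and 3.38. The log2 ratios of these 6 probes ran from -1.77 to 1.84. Each was more than 2 software errors from 0, which nearly any 2-fold ratio is at the error of bright ENSMUST probes (median 0.20). None of the 100 brightest ENSMUST probes was 2-fold different, and their log2 ratios lay between -0.31 and 0.56. The 8 brightest had levels from 8.75 to 9.58 in the control and from 8.85 to 9.93 in the WRN-K577M sample, and 7 of the 8 were above 0, with a median log2 ratio of 0.21. Over the 50 brightest the median was 0.030, with 31 above 0, and over the 100 brightest it was 0.040, with 61 above 0.

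**Figure D2:**
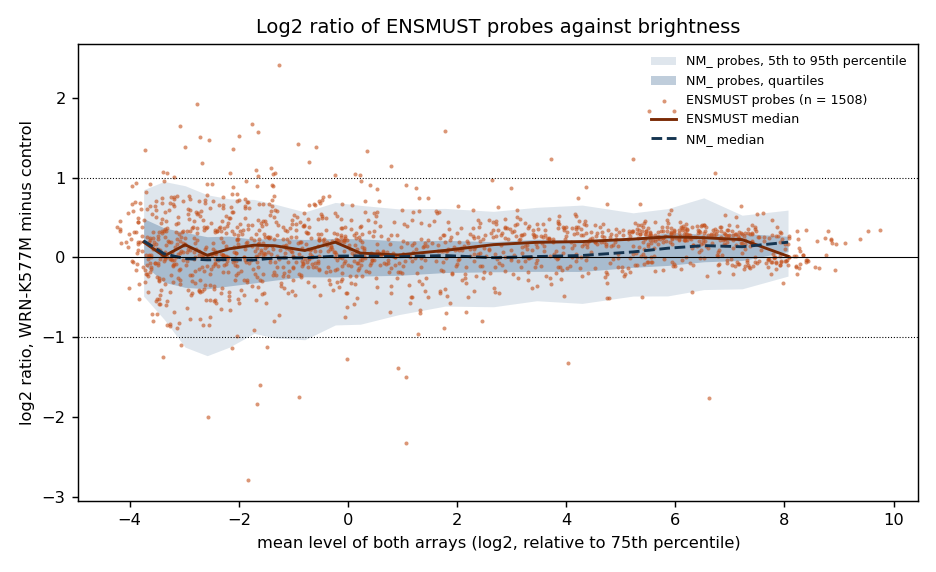
Each orange point is a measured ENSMUST probe, with its level averaged over both arrays (log2, relative to the 75th percentile) on the horizontal axis and its log2 ratio, WRN-K577M minus control, on the vertical axis. The blue bands hold the 5th to 95th percentile and the quartiles of NM_ probes in 20 brightness bins, the solid line is the ENSMUST median and the dashed line the NM_ median, and the dotted lines mark 2-fold: 35 points lie above and 15 below them.

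Set beside equally bright NM_ probes, the ENSMUST probes had higher ratios and a narrower spread. For this comparison NM_ probes were weighted so that each of 20 bins of mean level held as many of them as of ENSMUST probes. The median log2 ratio was 0.16 for ENSMUST and 0.053 for weighted NM_ probes, a difference of 0.11. The share above 0 was 67.5% against 56.1%, a difference of 11.4 percentage points. The interquartile range was 0.40 against 0.46 and the SD 0.41 against 0.51. The 5th percentile was -0.49 for ENSMUST and -0.77 for NM_ probes, and the 95th percentile was 0.72 and 0.70. Measured from the median of each kind, the 5th percentile lay 0.65 below it for ENSMUST and 0.82 below it for NM_ probes, and the 95th percentile 0.56 and 0.65 above it, so both tails were shorter for ENSMUST probes. At least 2-fold lower were 0.995% of ENSMUST and 3.05% of weighted NM_ probes, and at least 2-fold higher 2.32% and 2.03%. The difference in medians is below the SD of 0.11 that a log2 ratio shows between spots of the same probe, so it describes the group of probes and could not be read from a single probe.

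The difference in direction was present through most of the brightness range and absent or turned at its ends. The ENSMUST median was the higher in 17 of the 20 bins, and the share above 0 was the higher in 18. The interquartile range was smaller for ENSMUST probes in 16 bins and the SD in 18. All 20 ENSMUST medians lay above 0, against 13 for NM_ probes, whose medians lay between -0.032 and 0.047 from the second to the fifteenth bin and reached 0.21 in the dimmest. The counts of medians above 0 depend on how the arrays are scaled. With levels relative to the median of all probes, every log2 ratio shifted by -0.068. That shift is larger in size than several ENSMUST medians, such as 0.017 in the second bin and 0.015 in the brightest. It leaves the difference between the kinds unchanged. Between mean levels of 5.53 and 6.19, the 75 ENSMUST probes had the smallest interquartile range of the 20 bins, 0.135 against 0.41 for NM_ probes, though their SD of 0.31 was not the smallest. Their median was 0.26, and 85.3% were above 0 against 64.5%. In the brightest bin, from a level of 7.62 upward, the order was turned: the ENSMUST median was 0.015 and the NM_ median 0.19, and 43 of 76 ENSMUST probes (56.6%) were above 0 against 81.9% of NM_ probes.

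**Figure D3:**
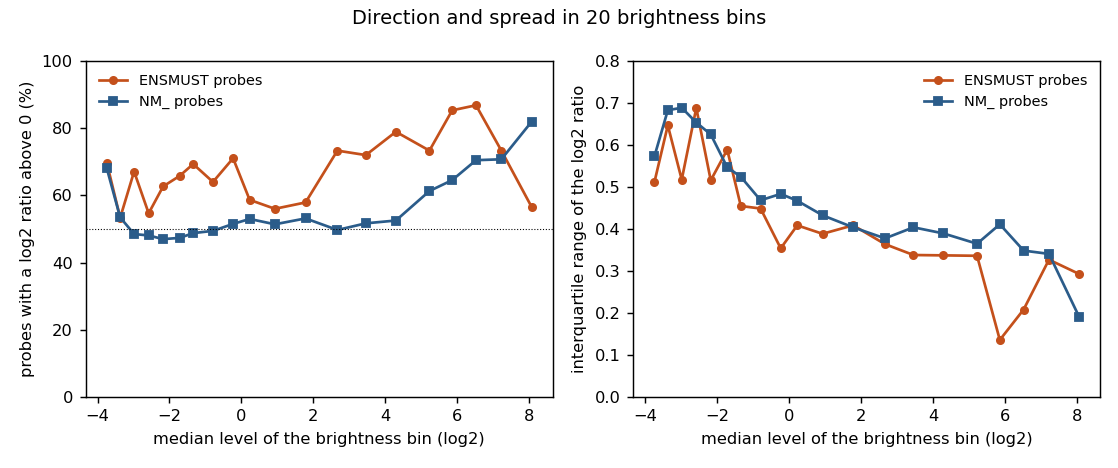
Share of probes with a log2 ratio above 0 (left) and interquartile range of the log2 ratio (right) in 20 bins of mean level, for ENSMUST probes (circles) and NM_ probes (squares), plotted at the median level of the ENSMUST probes of the bin. The ENSMUST share is the higher in 18 bins and falls to 56.6% in the brightest, where the NM_ share is 81.9%.

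By the median and the share above 0, the 4 other kinds of probe compared were closer to the ENSMUST probes than NM_ probes were. After the same weighting, the median log2 ratio was 0.18 for AK clones, 0.12 for non-coding RefSeq transcripts, 0.11 for probes with no accession but their own name and 0.096 for position-named probes. Shares above 0 ran from 63.0% for probes with their own name to 66.4% for AK clones. At a mean level of 4 or more there were 39 AK, 59 non-coding RefSeq, 119 position-named and 285 own-name probes, against 441 ENSMUST probes. In the bright bins the weighted values of the first 3 kinds therefore rest on few probes that each count heavily. For all probes that are neither ENSMUST nor NM_, weighted together, 66.9% were above 0 with a median of 0.13, so that the direction seen in ENSMUST probes is shared by these kinds. The share at least 2-fold lower was more variable: 0.583% of position-named, 2.01% of AK, 2.36% of non-coding RefSeq and 4.94% of own-name probes, against 0.995% of ENSMUST probes. The interquartile range of ENSMUST probes (0.40) lay among those of these kinds, which ran from 0.37 to 0.41. By the SD the kinds differed more, from 0.37 for position-named to 0.64 for own-name probes, the latter farther from ENSMUST probes (0.41) than NM_ probes (0.51).

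**Figure D4:**
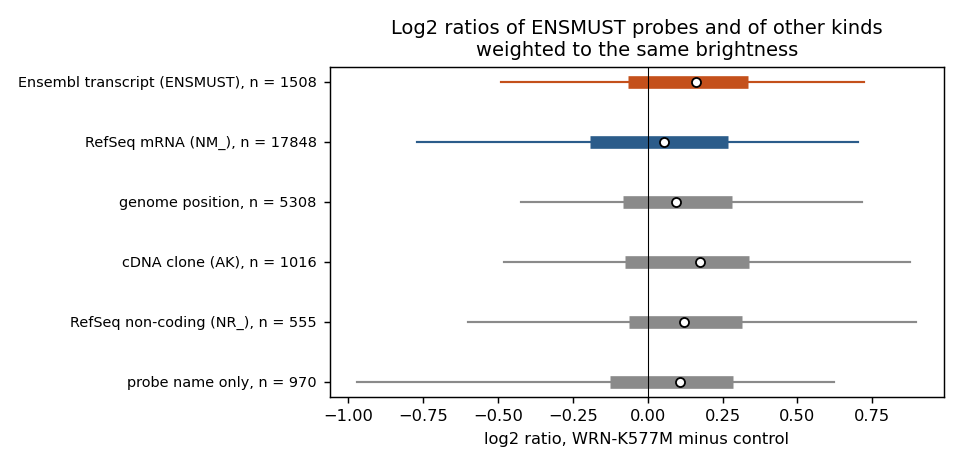
Log2 ratios, WRN-K577M minus control, of measured ENSMUST probes and of other kinds of probe weighted to the same numbers in 20 brightness bins. Circles are medians, thick bars quartiles and thin lines the 5th to 95th percentile. The NM_ median of 0.053 is the lowest and the AK median of 0.18 the highest, the latter with only 39 probes at a mean level of 4 or more.

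The error of a single ratio was estimated in 2 ways, both of which cover measurement only. Over 255 probes printed at 10 spots and well above background at every spot, log2 ratios from different spots of a probe had an SD of 0.11, and 2 SD correspond to 1.17-fold. Over measured ENSMUST probes, the error that the software assigns to a log2 ratio had a median of 0.20 and a 95th percentile of 0.34. Over those with a mean level below -2 its median was 0.28. Its 5th percentile over measured ENSMUST probes was also 0.20, so for many of them 2 errors were nearly the same threshold. By that estimate 304 ENSMUST probes (20.2%) differed from 0 by more than 2 errors, against 23.2% of all measured probes. Of these, 217 (14.4%) were higher in the WRN-K577M sample, where 12.9% of all measured probes were, and 87 (5.77%) were lower, where 10.3% were. All 35 higher and 15 lower probes past 2-fold were among them. With errors of this size a log2 ratio of 1 is nearly always past 2 errors, so this follows largely from the threshold.

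A few ENSMUST probes were printed at several spots, which shows the measurement directly. For one of them the 10 spots gave levels from -2.46 to -1.997 in the control and from -3.18 to -2.51 in the WRN-K577M sample, so the arrays did not overlap and all 10 spots were lower. Its log2 ratio was -0.53 ± 0.23 (SD over 10 spots of 1 probe). For another, the control spots gave -2.47 to -1.96 and the WRN-K577M spots -2.52 to -1.51, ranges that overlapped, with a log2 ratio of -0.00053 ± 0.22. The other 5 replicated probes were not measured, and in 1 of them 4 of 10 control spots and 0 of 10 WRN-K577M spots were well above background.

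Probes on the same transcript gave similar ratios in spite of different brightness. Several measured probes were available for 78 transcripts, 164 probes in all. These transcripts were brighter than most, with a median level of 4.19 against 0.54 over all measured ENSMUST probes. Ratios of bright ENSMUST probes lay close together in any case (interquartile range 0.31, 76.0% above 0). Similar ratios therefore need not come from sharing a transcript. Between the brightest and the dimmest probe of a transcript the mean level differed by a median of 0.98, while the highest and the lowest log2 ratio differed by a median of 0.079. For 67 of the 78 transcripts (85.9%) every probe lay on the same side of 0, above it for 50 and below it for 17. The corresponding values for 3152 NM_ transcripts weighted to the same brightness in 5 bins were a median difference of 0.11 and 79.1% on the same side. Probes of an NM_ transcript lay farther apart in level, by a median of 1.94 before weighting, and the weighting did not equalize this. A larger share of single ENSMUST probes also lay above 0, so the kinds are not compared on equal terms. In 7 ENSMUST transcripts the ratios differed by 0.5 or more, the widest by 0.96, from -0.47 to 0.49 in a pair of dim probes. Whether probes of a transcript overlap in sequence is not known.

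In 4 of the 78 transcripts (5.13%) at least 1 probe was 2-fold different, and in 2 of these (2.56% of the 78) all measured probes were. The shares were similar for NM_ transcripts, 5.77% and 1.74%, or 4.001% and 1.17% after weighting to the same brightness. One of the 2 was lower: its probes had control levels of -1.56 and -0.81, WRN-K577M levels of -3.56 and -2.41, and log2 ratios of -1.997 and -1.60. The other was higher, with levels of -0.32 and 0.21 on the control array against 1.01 and 1.36 on the WRN-K577M array, and log2 ratios of 1.34 and 1.14.

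**Figure D5:**
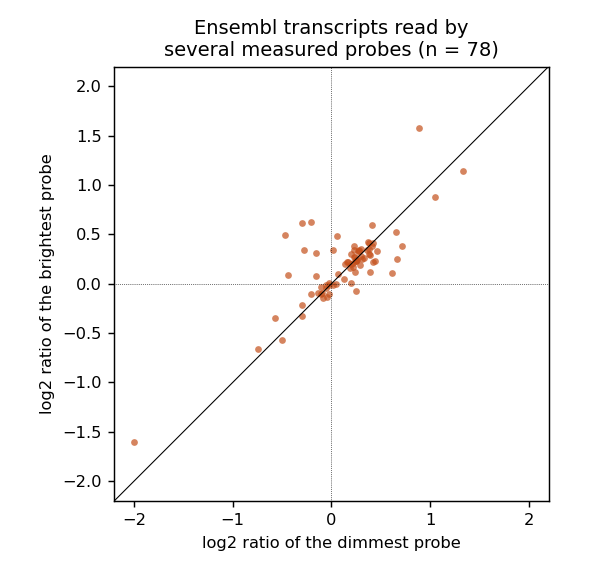
Log2 ratio, WRN-K577M minus control, of the brightest against the dimmest measured probe for each of 78 Ensembl transcripts read by several probes. The line marks equal ratios, and 67 transcripts have every probe on the same side of 0. The 2 transcripts with all measured probes past 2-fold are at -1.997 and -1.60 and at 1.34 and 1.14 (dimmest, then brightest probe).

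For probes detected on 1 array the ratio is a bound, which sets the brighter array against the dimmer. On the dimmer array the probe's own level was used, or the lowest level of any detected spot (-4.22 for WRN-K577M and -4.54 for control) where that was higher. Among ENSMUST probes, the 92 detected in the control only outnumbered the 35 detected in the WRN-K577M sample only, 3.11% against 1.18% of the probes. Over all non-control probes the shares were 3.73% and 1.44%, and over NM_ probes 3.59% and 0.875%. Most of these probes were close to background, with a median level of -4.00 for the former and -3.68 for the latter. The bound reached 2-fold for 14 of the 92 (15.2%) and for 10 of the 35 (28.6%), against 18.0% and 30.8% of the NM_ probes detected on the same single array. For 29 of the 92 no fold can be given, because the level in the control was not above the comparison level. The largest bound in each direction was at least 9.72-fold lower, from a control level of -0.94, and at least 7.83-fold higher, to a WRN-K577M level of -1.57.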

How the data were processed

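Agilent Feature Extraction 11.5.1.1 made the intensity values of both spot files, per the submitters' processing notes and the headers: a processed signal (background-subtracted, detrended, not scaled between arrays), its error, unprocessed median spot and background signals, and other columns with 0 or 1 flags. The deposited series matrix holds the processed signal multiplied by 4.12 (control) and 4.86 (WRN-K577M), on a linear scale without centring, with the choice of factors not stated in the sources used. Coordinates are not printed, since the design's build is mm9 per the headers.

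Control spots and 257 outlier spots were left out (none was saturated). Log2 processed signals were averaged over the spots of a probe, and the 75th percentile over non-control probes was subtracted (224 on the control and 183 on the WRN-K577M array as signal). A probe was detected when any spot was well above background, and measured when this held on both arrays, whose number limits the precision. Detected probes were 55.2% and 52.9%. Of 17866 measured NM_ probes 17848 lay in the brightness range compared. Planned comparisons by gene could not be made without names. Symbols of marker genes came from RefSeq accessions of GRCm38.p6. The members, marker lists and tests were chosen with earlier results of these data known. Named transcripts are the 2 furthest above and the 2 furthest below a log2 ratio of 0; others singled out were chosen after their values were seen. Weighting and counting were tested on simulated data. Alternatives were normexp (offset 50, median signals), quantile normalization, cyclic loess, other percentiles, filters, thresholds, bins and 1 probe per transcript (added after seeing the data). Python 3.11.15, numpy 2.4.6, pandas 2.3.3, R 4.3.3, limma 3.58.1 and matplotlib 3.10.9 were used.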

Additional observations from a re-analysis of the deposited data

How the results depend on the processing

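The numbers of ENSMUST probes at least 2-fold higher and lower, 35 and 15, were 7 and 7 (0.464% each) after normexp, where 0.565% and 1.07% of all probes were. They were 17 and 7 (1.55% and 0.636%, against 1.45% and 2.001% of all probes) with a level of at least -2 required on both arrays, and 251 and 69 (8.49% and 2.33%, against 7.93% and 3.84%) with no filter on dim probes. At 1.5-fold they were 133 and 47 and at 3-fold 7 and 7 (0.464% each, against 0.443% and 0.865%). The SD of their log2 ratio, 0.41, was 0.28 after normexp and 0.60 with no filter. With no filter the median log2 ratio was 0.32, the median over all probes moved up by 0.18, and the share above 0 exceeded that of equally bright NM_ probes by 8.86 percentage points. The median itself was 0.074 with cyclic loess, its lowest. Its difference from NM_ probes ran from 0.063 (normexp) to 0.108 over the alternatives run, and the difference in interquartile range from -0.112 (no filter) to -0.045 (normexp), so none changed sign; all are as small as or smaller than the SD between spots of a probe (0.114), so that SD sets no scale for their stability. The flag for a positive and significant signal would detect 2038 ENSMUST probes in place of 1508. The cause of these changes was not tested, except that filters change which probes are counted. Signal over background limits the dim probes, and 1 array per group limits every comparison. No paired analysis was possible because each group holds 1 array.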

Other observations

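The identifiers are numbered, and the ENSMUST probes were also split by that number. A mean level of 4 or more was reached by 17 of 112 measured probes (15.2%) for numbers up to 50000, by 30.4% up to 100000, by 27.2% up to 150000 and by 143 of 396 (36.1%) above that, so the share did not climb steadily. The share measured was 53.8%, 54.8%, 50.5% and 48.7% in these ranges, and the median log2 ratio 0.11, 0.18, 0.16 and 0.15. Between probe series, named by the start of the probe name, the share of ENSMUST probes above 0 was 68.2% for the 1165 measured probes that begin with A_55, 70.4% for the 159 with A_52, 63.0% for the 73 with A_51 and 58.6% for the 99 with A_66. NM_ probes of the same series, not weighted to the brightness of the ENSMUST probes, had shares of 53.2%, 52.4%, 51.7% and 53.0%. Without such weighting the ENSMUST share was the higher in each of these 4 series. These are descriptions of 1 pair of arrays.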
